A study of Mus musculus with 8 samples.

Results

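Genes of the PARP family, 10 in all, were followed in granulocyte-macrophage progenitors, the marrow cells that become neutrophils and monocytes: *Parp1*, *Parp2*, *Parp3*, *Parp4*, *Parp8*, *Parp9*, *Parp10*, *Parp11*, *Parp12* and *Parp14*. They were taken by gene symbol from a table of 23131 genes, each symbol had 1 row, and all 10 passed the filter on low values. The 4 knockout mice carry floxed alleles of *Rnaseh2b* (Rnaseh2b fl/fl) and Vav-Cre, a recombinase driven in blood-forming cells; the 4 control mice are littermates with the same floxed alleles and no Cre. All mice are C57BL/6, and their age was not stated in the labels. RNA came from lineage-negative marrow sorted on CD16/32 and CD34 (a gate labelled LE-K CD16/32hiCD34+), and each library is 1 mouse, called control 1 to 4 and knockout 5 to 8. The comparison asked which transcripts differ when the RNase H2 enzyme, which cuts ribonucleotides out of genomic DNA, lacks its B subunit.

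Enzymes of the PARP family use NAD to attach ADP-ribose to proteins and nucleic acids. PARP1, PARP2 and PARP3 are switched on by DNA breaks, and PARP1 and PARP2 build the poly(ADP-ribose) chains that bring in single-strand break repair; human cells without RNase H2 are known to be sensitive to drugs that trap PARP1 on DNA. PARP9, PARP10, PARP11, PARP12 and PARP14 are the members best known as interferon-stimulated genes; most of them transfer single ADP-ribose units, and PARP9 works with the ubiquitin ligase DTX3L. PARP4, a component of vault particles, and PARP8, whose role is little described, belong to neither set.

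Reads assigned to genes ran from 28352720 to 45655518 per library. Values below are normalised counts, that is, gene counts the authors divided by 1 factor per library; a change is a log2 fold change of (normalised count + 1), knockout over control, which understates the change of low genes. A gene passed at a limma Benjamini-Hochberg adjusted p below 0.05 over all 16688 genes tested. By that rule 234 genes (1.4%) differed, 199 (1.19%) higher and 35 (0.21%) lower in the knockouts. An unadjusted p below 0.05 was found for 2199 genes (13.2%), the share against which the counts at that p given below are to be read. *Rnaseh2b* itself had 1207.3 to 2470 normalised counts in controls and 75.9 to 127.5 in knockouts, so no library went against its label. All 9 markers of the sorted cells were expressed, with sums of 1251023 to 1352486 in controls and 1132615 to 1188306 in knockouts. Every knockout sum was below every control sum, and most of each was *Mpo*. The markers did not move together: log2 fold changes ran from -0.35 (*Elane*) to 0.34 (*Cd34*), and none of the 9 passed. Knockout 8 stood apart from the other libraries, at -49.7 on a second principal component where control 1 lay at 34.6 and the others between -14.0 and 10.95.

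Promoter sequence of RefSeq (GRCm38.p6) was matched for 7 of the 10 genes, with no entry used for *Parp9*, *Parp10* and *Parp14*. The interferon-stimulated response element, searched as GAAANNGAAA on both strands from 250 bases before to 50 after each start, was found in 2 of the 7, *Parp4* and *Parp11*. The same letters occur in 1131 of 32851 such windows (3.44%), and in 8 of the 11 matched genes of a reference list of interferon-stimulated genes. The STAT-bound GAS element, searched as the palindrome TTCNNNGAA, was found in *Parp11* alone of the 7, and in 2726 of the 32851 windows (8.3%). For both elements a gene was counted if any of its start windows matched, whereas the percentages are shares of windows. The 250 bases before the start are shown for both genes with a match and, as an interferon-linked gene without one, for *Parp12*; capitals mark the matches.
Parp4 (chr14:56575369-56575618, + strand): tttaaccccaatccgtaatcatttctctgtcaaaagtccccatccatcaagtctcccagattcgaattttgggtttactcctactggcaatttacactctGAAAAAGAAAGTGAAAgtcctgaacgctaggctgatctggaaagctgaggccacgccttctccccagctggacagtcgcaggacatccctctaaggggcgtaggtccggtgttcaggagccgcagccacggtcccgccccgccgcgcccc
Parp11 (chr6:127446590-127446839, + strand): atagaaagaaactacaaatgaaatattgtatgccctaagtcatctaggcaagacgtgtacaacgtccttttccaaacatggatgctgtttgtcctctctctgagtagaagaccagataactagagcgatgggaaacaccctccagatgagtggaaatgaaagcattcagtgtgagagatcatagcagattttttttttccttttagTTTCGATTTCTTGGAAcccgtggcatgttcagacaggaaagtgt
Parp12 (chr6:39118350-39118599, - strand): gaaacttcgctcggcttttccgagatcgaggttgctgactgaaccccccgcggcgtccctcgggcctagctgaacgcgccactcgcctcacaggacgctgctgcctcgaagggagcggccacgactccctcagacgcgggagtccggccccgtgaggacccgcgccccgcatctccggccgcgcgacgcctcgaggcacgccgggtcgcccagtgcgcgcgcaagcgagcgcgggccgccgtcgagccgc
In *Parp4* a pair of overlapping matches spans bases -150 to -141 and -144 to -135 counted from the start. In *Parp11* the response element (-44 to -35) overlaps the GAS match (-37 to -29), and a second RefSeq start of *Parp11* has neither. A match is a description of letters: neither *Parp4* nor *Parp11* passed the test, as given below.

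Per kilobase of gene model, *Parp1* was by far the highest of the 10 in controls, at 2712 ± 336 normalised counts per kilobase (SD, n = 4), above 93.8% of the genes tested. *Parp2* (672 ± 30.1) and *Parp8* (592 ± 43.2) followed, with ranges over the 4 controls that overlapped. *Parp9* (287 ± 13.5) and *Parp10* (221 ± 9.23) came next, each separate from its neighbours. *Parp4* (155 ± 22.3), *Parp3* (119 ± 16.2), *Parp14* (113 ± 12.3) and *Parp11* (107 ± 9.37) overlapped from one to the next, and *Parp12* was lowest, at 72.3 ± 4.95. The DNA-damage PARPs thus held both the top of the order and a place in its lower part, and the interferon-linked ones lay in its middle and lower part, between the 31.5 and 58.3 percentiles of all genes tested. In knockouts the per-kilobase level of *Parp14* was 164 ± 25.3, above that of *Parp4* (151 ± 22.4) and *Parp3* (155 ± 24.2), with ranges that overlapped.

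**Figure D1:**
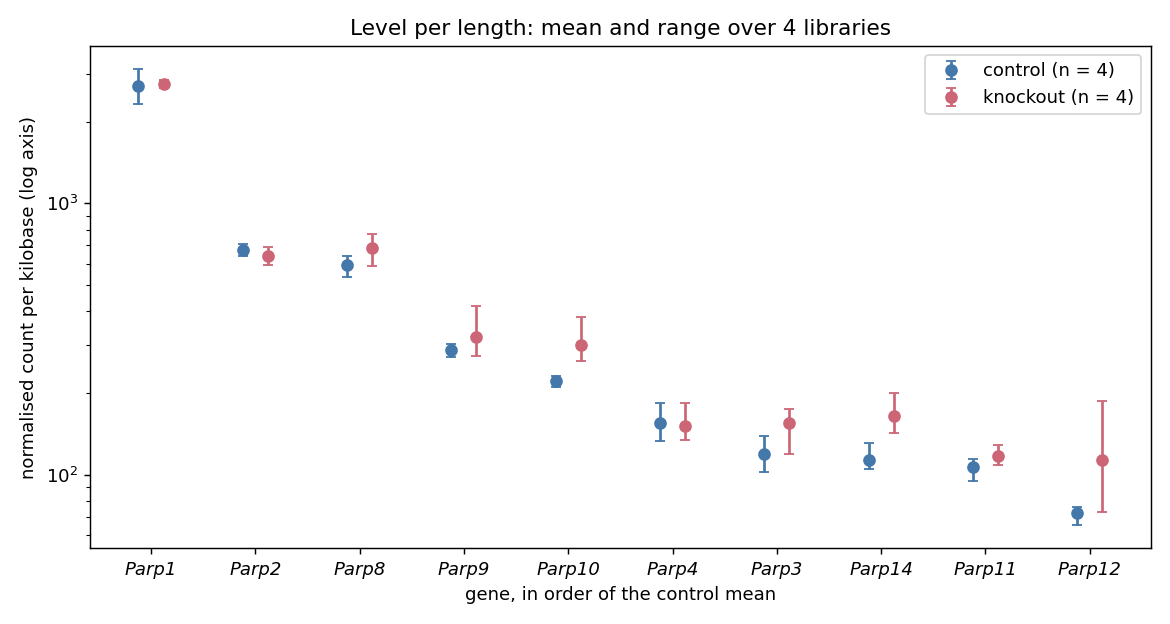
Normalised count per kilobase of gene model (log axis) for the 10 genes in order of the control mean; points are means and bars the range over 4 libraries per group. *Parp1* lies at 2712 in controls, and *Parp12* lowest at 72.3, with a knockout range from 73.0 to 187.

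Among the DNA-damage PARPs none of 3 passed the test with limma, edgeR or DESeq2, and 1, *Parp3*, had an unadjusted p below 0.05. *Parp1*, the main sensor of strand breaks, lies on chromosome 1 from 180568924 to 180601254 (mm10). Its normalised counts were 16580.9, 14660.6, 12308.8 and 13876 in controls 1 to 4, against 14027.4, 14985.8, 15116.7 and 14209 in knockouts 5 to 8. Every knockout lay inside the control range. The log2 fold change was 0.03 ± 0.085 (SE; 95% interval -0.15 to 0.21; limma adjusted p = 0.922).

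*Parp2*, the partner that shares much of the work of PARP1, lies on chromosome 14 from 50807841 to 50821301. It had 2314.6, 2414.3, 2579.7 and 2436.8 in controls and 2152.6, 2290.2, 2332.6 and 2500.3 in knockouts, and the groups overlapped. Its log2 fold change was -0.07 ± 0.075 (95% interval -0.23 to 0.09; limma adjusted p = 0.740). For *Parp1* and *Parp2* these intervals leave out a change as large as that of *Parp14* given below.

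*Parp3*, which acts with the end-joining machinery at double-strand breaks, lies on chromosome 9 from 106470322 to 106476949. Normalised counts were 377, 458.1, 514.7 and 410.5 in controls 1 to 4, against 615.8, 645.3, 442.7 and 582.3 in knockouts 5 to 8. The knockouts 5, 6 and 8 were above every control, and knockout 7 lay among the controls. The log2 fold change of 0.37 ± 0.14 (95% interval 0.07 to 0.67) did not pass (limma adjusted p = 0.264; unadjusted p = 0.0199), and it stayed between 0.29 and 0.49 with each other setting. *Parp3* shares 20 exon bases with *Rrp9* on the opposite strand.

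**Figure D2:**
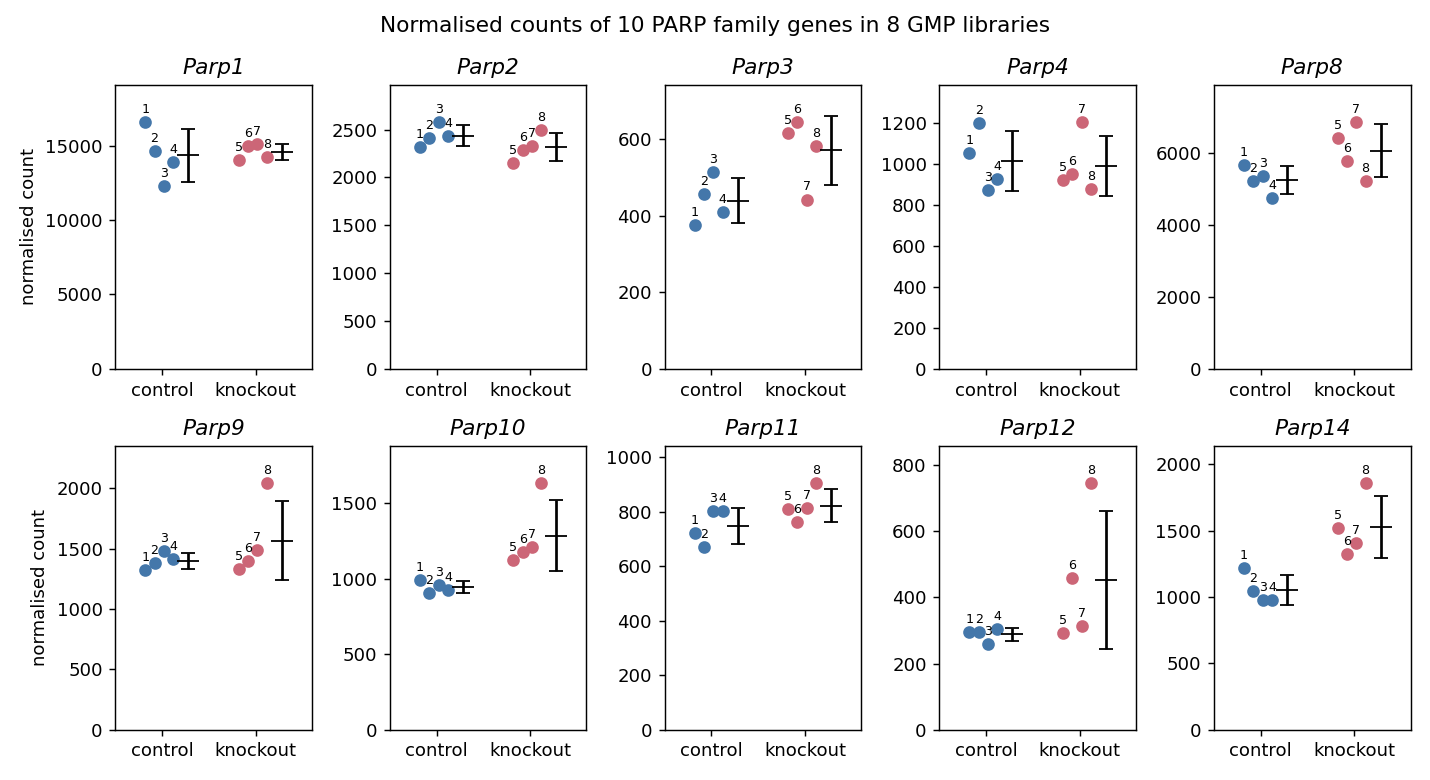
Normalised counts of the 10 genes, 1 panel each with an axis from 0; numbered points are libraries (controls 1 to 4, knockouts 5 to 8) and the black marks the mean and SD of 4. For *Parp10* and *Parp14* every knockout lies above every control, as for 3.99% of all genes tested. Knockout 8 is the highest library for *Parp9*, *Parp10*, *Parp11*, *Parp12* and *Parp14*.

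Of the 10 genes 1 passed, where 1.4% of all genes tested did. It was *Parp14*, 1 of the 5 interferon-linked PARPs, where 1.19% of all genes tested rose. All 5 log2 fold changes were above 0, with a median of 0.43 (0.27 without knockout 8; without control 1 and knockout 8 *Parp9* was at -0.02), against a median of -0.01 over all genes tested, 7872 of which were above 0 and 8816 below. For the 3 DNA-damage PARPs the median was 0.03. These medians are descriptions and carry no test.

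*Parp14*, a large macrodomain protein known as a co-activator of STAT6, lies on chromosome 16 from 35832874 to 35871544 on the minus strand. Its normalised counts were 1218.1, 1041.9, 974.4 and 975.7 in controls 1 to 4, against 1521.5, 1325.6, 1405.9 and 1860.3 in knockouts 5 to 8. The lowest knockout stood above the highest control, as it did for 666 genes (3.99%) of all genes tested. *Parp14* rose 1.45-fold, a log2 fold change of 0.53 ± 0.11 (SE; 95% interval 0.29 to 0.78; limma adjusted p = 0.0324). The call was kept without knockout 8 (0.43; adjusted p = 0.0277), where 2.05% of genes were called higher, without control 1 (0.0166) and without knockout 6 (0.0319). It was lost without control 2, 3 or 4 (adjusted p = 0.102, 0.101 and 0.137), without knockout 5 or 7 (0.0814 and 0.0639), and with no intensity trend (0.172). The log2 fold change lay between 0.43 and 0.60 in every setting.

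*Parp10*, a mono-ADP-ribosyltransferase with ubiquitin-binding motifs, was the next nearest to passing. It lies on chromosome 15 from 76231174 to 76243441, and its normalised counts were 991.5, 901.1, 959.4 and 925.6 in controls and 1120, 1178.7, 1205.7 and 1634.2 in knockouts. All knockouts were above all controls, as for 3.99% of all genes tested, and the controls spanned a narrow range. The log2 fold change of 0.43 ± 0.11 (95% interval 0.18 to 0.67) did not pass in limma (adjusted p = 0.0938) or edgeR (0.0801). It passed in DESeq2 on the recovered reads (adjusted p = 0.0124), where 2.52% of genes were called higher, and with array weights (0.0246), where 3.28% were. *Parp10* shares 205 of its 4275 exon bases with *Plec* on the same strand, so a part of its count is uncertain.

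*Parp12*, a zinc-finger protein of the Golgi and stress granules, lies on chromosome 6 from 39086410 to 39118349. It had 296.3, 295.6, 259.8 and 303.9 in controls 1 to 4, against 291.7, 458.4, 313.5 and 746.8 in knockouts 5 to 8. The knockouts were spread widely: knockout 8 stood at 2.11 times the mean of knockouts 5 to 7, and knockout 5 lay inside the control range. The log2 fold change was 0.54 ± 0.23, about that of *Parp14*, with a 95% interval of 0.04 to 1.05 and no call (limma adjusted p = 0.334). Without knockout 8 it was 0.27 (adjusted p = 0.403).

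*Parp9*, a macrodomain protein with little or no transferase activity of its own, lies on chromosome 16 from 35938470 to 35972605. Its normalised counts were 1323.9, 1376.2, 1480.4 and 1413.9 in controls 1 to 4, against 1334.2, 1393.8, 1491.7 and 2045.1 in knockouts 5 to 8. Knockouts 5 to 7 were level with the controls, and knockout 8 alone was clearly above them. The log2 fold change was 0.14 ± 0.12 (95% interval -0.11 to 0.40; limma adjusted p = 0.656), and 0.01 without knockout 8 (adjusted p = 0.973).

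*Parp11*, a mono-ADP-ribosyltransferase linked to the nuclear envelope, lies on chromosome 6 from 127446840 to 127494261. It had 721.1, 668.8, 803.3 and 802.4 in controls and 808.5, 763.1, 812.4 and 906.6 in knockouts. Knockout 6 lay among the controls, and knockouts 5 and 7 were only just above the highest one. Its log2 fold change was 0.14 ± 0.10 (95% interval -0.08 to 0.35; limma adjusted p = 0.610), and 0.09 without knockout 8. *Parp11* and *Parp4* hold the response element letters shown above, while *Parp12* does not.

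**Figure D3:**
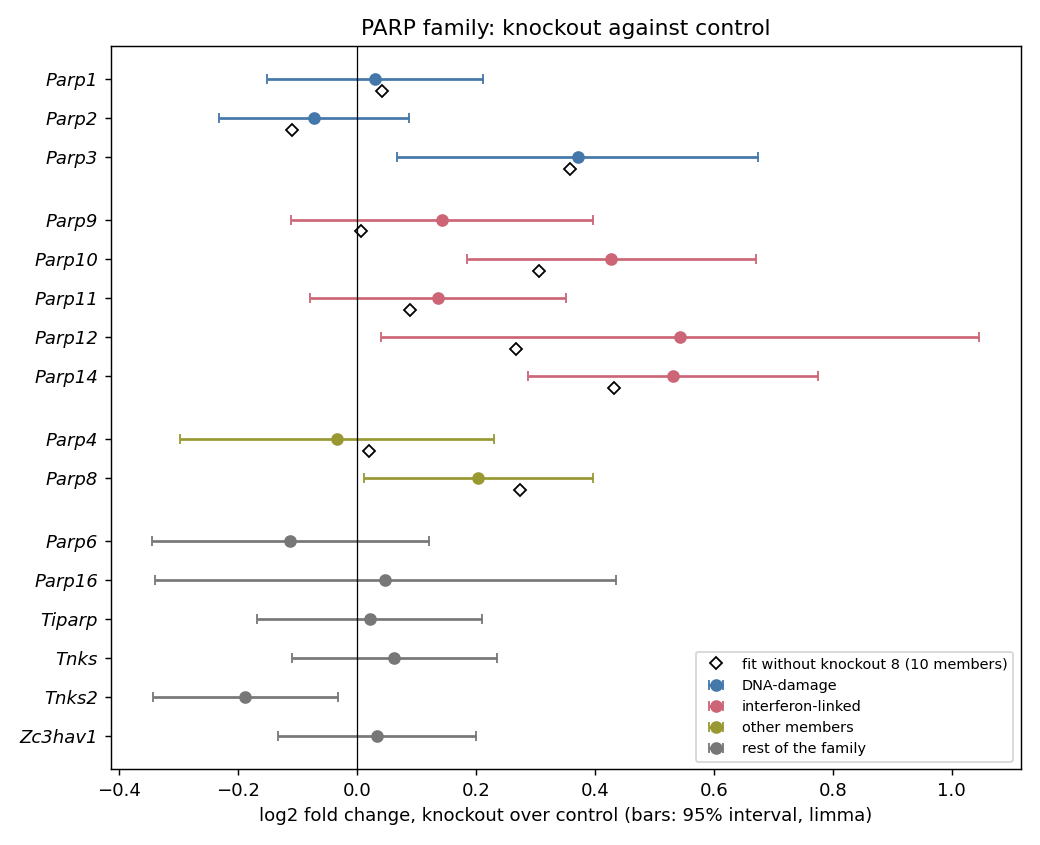
Log2 fold change, knockout over control, with 95% intervals from limma for the 10 genes and the 6 other genes of the family, coloured by set; open diamonds give the fit without knockout 8 for the 10 genes. *Parp14* lies at 0.53 and stays at 0.43 without knockout 8, *Parp9* goes from 0.14 to 0.01, and *Parp1* stays at 0.03 to 0.04.

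An interferon-linked gene was set against a DNA-damage one in 1 ratio, that of *Parp14* to *Parp1* within each library, which does not depend on the scaling between libraries. The log2 ratio was -3.77, -3.81, -3.66 and -3.83 in controls 1 to 4, against -3.20, -3.50, -3.43 and -2.93 in knockouts 5 to 8, with no overlap. It was higher in knockouts by 0.50, a 1.42-fold shift from -3.77 ± 0.077 to -3.27 ± 0.25 (SD, n = 4 each; exact two-sided permutation test over 70 splits, p = 0.0286, the smallest that 4 against 4 libraries can give). Without knockout 8 the difference was 0.39 (exact permutation p = 0.0286), and without any 1 control it was 0.48 to 0.54 (exact permutation p = 0.0571). This pair joins the 1 called gene to one that was flat and was chosen with earlier results known, so it restates the separation of *Parp14* and is no test of the 2 sets. Other pairs were not tested.

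Over the 5 interferon-linked genes, the average distance from the control mean (log2) was 0.17, 0.27, 0.22 and 0.76 in knockouts 5 to 8 and -0.04 to 0.04 in controls. Over the 3 DNA-damage genes it was 0.10, 0.18, 0.01 and 0.15 in knockouts and -0.04 to 0.04 in controls. The excess of the first over the second was 0.07, 0.09, 0.21 and 0.62 in knockouts 5 to 8 and -0.08 to 0.06 in controls. Knockouts 5 and 6 therefore exceeded the highest control only narrowly, and most of the separation lay in knockout 8.

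Knockout 8 also differed in markers of other cells. The summed normalised counts of 7 erythroid and megakaryocyte markers were 2631 there, 1048 to 1373 in knockouts 5 to 7 and 1163 to 1518 in controls; all 7 were in the table. The 7 eosinophil and mast cell markers summed to 30356 in knockout 8 and to 7629 to 13356 in knockouts 5 to 7, against 21745 to 35492 in controls. That sum joins genes that differed in direction. In knockout 8 *Prg2* (16428.3) and *Epx* (3777.5) lay inside the control range. *Ear1* (45.2) and *Ear2* (93.4) lay below every control there, as in the other knockouts, a separation found for 3.42% of all genes tested. Both passed as lower, where 0.21% of all genes tested did. Their log2 fold changes were -2.28 (*Ear1*, limma adjusted p = 8.21e-05) and -2.42 (*Ear2*, limma adjusted p = 0.0407). *Fcer1a* (2524.4), *Cpa3* (4275) and *Mcpt8* (3212.5) were higher in knockout 8 than in any other library. The 8 later neutrophil markers summed to 1910 in knockout 8, of which *Lcn2* alone made up 1309.8. These sums were 843 to 1409 in controls and 1019 to 1249 in knockouts 5 to 7. The granule gene *Ltf* was at 4.5, 1, 5.9 and 7.7 in knockouts 5 to 8 and at 8.6 to 171.9 in controls. Every knockout was thus below every control for *Ltf*, as for 3.42% of all genes tested. *Lcn2* went the other way, at 576.2 to 1309.8 in knockouts and 459.7 to 551.3 in controls. Every knockout was above every control for *Lcn2*, as for 3.99% of all genes tested. The means of *Mmp8* and *Cxcr2* were also higher in knockouts and those of *Camp* and *Ngp* lower. None of these genes, *Ltf* and *Lcn2* included, passed. The 11 dendritic cell markers summed to 14609 in knockout 8 and 17950 to 23819 elsewhere, most of it *Irf8*; the class II genes among them were highest in knockout 8, with *H2-Ab1* at 1106 against 481 to 660 and *H2-Aa* at 159.8 against 4.9 to 89.9 in the other 7 libraries. Monocyte and macrophage markers summed to 100026 in knockout 8, inside the range of the others, and most of each sum was *Ly6c2* and *F13a1*. *Ccr2* passed as higher in knockouts (log2 fold change 0.48, limma adjusted p = 0.0274), where 1.19% of all genes tested did. *Cx3cr1* was at 984.5 in knockout 8, inside the control range, and at 1502.8 to 1713.2 in knockouts 5 to 7. It did not pass (limma adjusted p = 0.0811). *Ly6c2*, *F13a1* and *Adgre1* had lower means in knockouts and did not pass. Of 7 T, B and NK cell markers the 2 in the table summed to 22.2 in knockout 8 and at most 10.9 elsewhere. *Siglech*, a marker of plasmacytoid dendritic cells, was at 0 in the 4 controls and at most 3.6 in the knockouts, with 1.9 in knockout 8. The part of these cells in the values of *Parp9*, *Parp10*, *Parp12* and *Parp14* was not tested, and in bulk RNA fewer cells of a type and less RNA per cell cannot be told apart.

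Neither of the 2 remaining genes, *Parp8* and *Parp4*, passed with limma, edgeR or DESeq2, and 1 (*Parp8*) had an unadjusted p below 0.05. *Parp8* lies on chromosome 13 from 116854820 to 117025537, and had 5675.6, 5236.7, 5355.5 and 4751.3 in controls 1 to 4, against 6429.8, 5783.3, 6870.7 and 5220.1 in knockouts 5 to 8. Here knockout 8 was the lowest knockout, below 3 of the controls, and the other 3 knockouts were above every control. The log2 fold change was 0.20 ± 0.090 (limma adjusted p = 0.346), and without control 1 and knockout 8, a choice made after seeing the data, it was 0.31 and passed (adjusted p = 0.0266), where 3.91% of genes were called higher. *Parp4*, on chromosome 14 from 56575619 to 56659794, had 870.7 to 1199 in controls and 877.7 to 1204 in knockouts. Its log2 fold change of -0.03 ± 0.12 (adjusted p = 0.943) took either sign across settings.

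**Figure D4:**
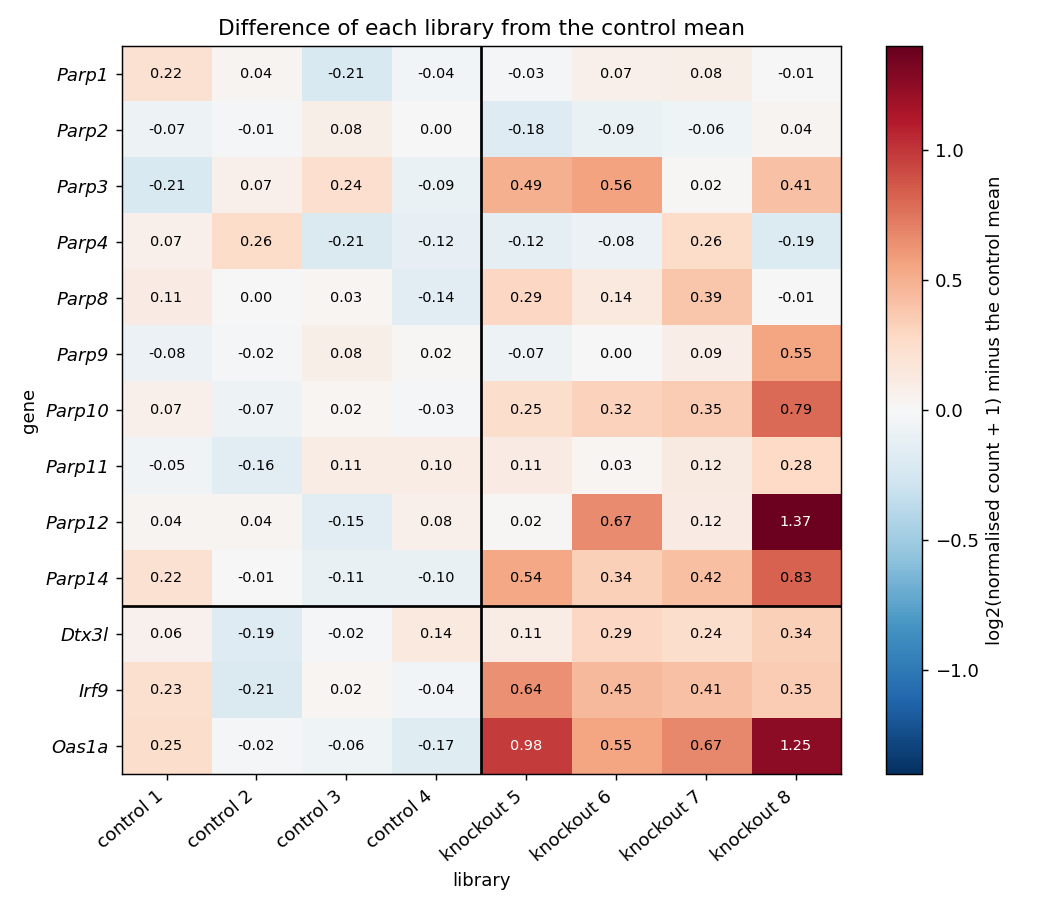
Difference of each library from the control mean on the log2(normalised count + 1) scale, for the 10 genes and, below the line, *Dtx3l*, *Irf9* and *Oas1a*; red is higher and blue lower. In knockout 8 *Parp12* is at 1.37 and *Parp14* at 0.83, whereas *Irf9* is at 0.35 there and at 0.41 to 0.64 in knockouts 5 to 7.

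*Parp14*, *Dtx3l* and *Parp9* lie close together on chromosome 16, and only *Parp14* of the 3 passed; differences between their changes were not tested. *Dtx3l*, the ligase partner of PARP9, had 2783.3, 2340.6, 2630.9 and 2930.7 in controls and 2869.2, 3262.5, 3149.9 and 3361.7 in knockouts. Knockout 5 lay inside the control range and the others above it, with a log2 fold change of 0.25 ± 0.085 that did not pass (limma adjusted p = 0.217). *Dtx3l* and *Parp9* overlap head to head over 458 exon bases on opposite strands, 9.40% of the *Parp9* model, and the sources used here do not state how strand was treated in counting. No other gene tested within 100000 bases passed; among them *Hspbap1* was at 0.21 (adjusted p = 0.641) and *Kpna1*, an importin gene, at -0.11 (adjusted p = 0.610). Of the 4 deltex genes tested none passed with limma, edgeR or DESeq2 (2 at an unadjusted p below 0.05); *Dtx4* had 5331 ± 333 in controls and 4590 ± 478 in knockouts.

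None of the 6 other genes of the family passed with limma, edgeR or DESeq2, and 1 had an unadjusted p below 0.05. That gene was *Tnks2*, a tankyrase that marks axin for destruction, with 5998 ± 361 in controls and 5267 ± 323 in knockouts (log2 fold change -0.19; limma adjusted p = 0.274). *Zc3hav1*, the antiviral protein ZAP, which binds CpG-rich viral RNA and is also counted as an interferon-stimulated gene, had 4635 ± 347 and 4743 ± 325 (0.03; adjusted p = 0.900). Its 95% interval ended at 0.20, below the estimate for *Parp14*. The 6 log2 fold changes ran from -0.19 to 0.06, with a median of 0.03.

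Genes that work with the DNA-damage PARPs did not pass in the main limma fit either. Among 16 partners, readers and single-strand break repair genes, 0 passed with limma, edgeR or DESeq2 and 2 had an unadjusted p below 0.05; 12 log2 fold changes were below 0, with a median of -0.07. *Pcna*, the replication clamp, had 10567 ± 681 in controls and 9040 ± 1109 in knockouts (limma adjusted p = 0.257). It passed as lower without knockout 8 (log2 fold change -0.31, limma adjusted p = 0.0277), where 227 genes were called lower. It also passed with array weights (-0.29, limma adjusted p = 0.0252), where 454 were. Without control 1 and knockout 8 it passed too (-0.35, limma adjusted p = 0.00687), where 793 were. *Dnmt1*, the maintenance DNA methyltransferase, had 19933 ± 2684 and 19020 ± 1258 (adjusted p = 0.842).

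Among the genes that remove ADP-ribose, of 9 tested, 0 passed with limma, edgeR or DESeq2, 1 had an unadjusted p below 0.05, and the median log2 fold change was -0.10. *Parg*, which degrades the chains, had 2773 ± 226 in controls and 2582 ± 208 in knockouts (limma adjusted p = 0.652). *Adprh*, which takes ADP-ribose off arginine, had 3136.1, 3066.1, 3051.9 and 3076.1 in controls and 2958.3, 2820.6, 2840.4 and 2903.6 in knockouts. Every knockout was below every control, as for 3.42% of all genes tested. Its log2 fold change was only -0.10 (adjusted p = 0.557).

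NAD, the substrate of the enzymes that attach ADP-ribose, has its own genes of supply. They were listed together with the NAD kinase genes *Nadk* and *Nadk2*, which use NAD. None of 9 tested in this joint list passed with limma, edgeR or DESeq2, and the median log2 fold change was -0.03. The 1 gene at an unadjusted p below 0.05 was the kinase gene *Nadk2*. *Nampt*, the rate-limiting enzyme of NAD salvage, had 5826 ± 417 in controls and 6312 ± 1038 in knockouts, with knockout 8 highest at 7772 (limma adjusted p = 0.714). *Nadk*, the cytosolic NAD kinase, had 6790 ± 511 and 6661 ± 182 (adjusted p = 0.921). Of 8 other NAD-consuming genes 0 passed with limma or edgeR, 2 had an unadjusted p below 0.05 and 1 passed in DESeq2; the sirtuin genes *Sirt7* (3312 ± 196 and 2933 ± 278; limma adjusted p = 0.367) and *Sirt3* (1710 ± 240 and 1993 ± 250; 0.419) had the highest means.

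Interferon signalling genes gave the setting for the 5 interferon-linked PARPs. Of 14 tested 1 rose, *Irf9*, the DNA-binding subunit of the ISGF3 complex, where 1.19% of all genes did, and the median log2 fold change was 0.16. The count was 1 with edgeR and 2 with DESeq2, and 5 had an unadjusted p below 0.05. *Irf9* had 1511.2, 1119.3, 1314.2 and 1253.6 in controls 1 to 4, against 2007.6, 1771.4, 1718.4 and 1650.5 in knockouts 5 to 8 (log2 fold change 0.46 ± 0.10; limma adjusted p = 0.0356). In *Irf9* knockout 8 was the lowest of the 4 knockouts, and in the 5 interferon-linked PARPs it was the highest. The call of *Irf9* was lost in 7 of 19 other settings (highest adjusted p = 0.172).

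In a reference list of antiviral interferon-stimulated genes 5 of 11 tested rose, where 1.19% of all genes did; edgeR called 5 and DESeq2 6, and 8 had an unadjusted p below 0.05. The median log2 fold change over the 11 was 0.90, above that of each of the 5 PARP genes. The 5 were *Oasl1* (132 ± 14.9 to 280 ± 29.1), *Oas1a* (755 ± 97.2 to 1392 ± 310), *Mx1* (80.9 ± 36.2 to 284 ± 141), *Xaf1* (158 ± 41.4 to 301.3 ± 55.4) and *Ifit1* (51.9 ± 12.9 to 135 ± 49.1), with limma adjusted p from 0.00165 to 0.0323. Of 19 other settings the call was lost in 6 each for *Ifit1* and *Xaf1*, in 3 for *Mx1* and in 1 for *Oas1a* (no intensity trend, adjusted p = 0.105), and in 0 for *Oasl1*. *Mx1*, an antiviral GTPase, was highest in knockout 5 (494.3). *Oasl1* (323.4), *Oas1a* (1789.1), *Xaf1* (383) and *Ifit1* (202.1) were highest in knockout 8. Over the 11 genes the average distance from the control mean (log2) was 0.74, 0.66, 0.60 and 1.16 in knockouts 5 to 8.

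By the rule of likeness, the 5 genes whose log2 values went most nearly with *Parp14* over the 8 libraries were *H2-D1*, *Oas1a*, *Ifit1*, *Ptk7* and *Lgals3bp*, with Pearson r from 0.981 to 0.995 among 11669 genes compared. For *Parp1* they were *Vcp-rs*, *Sf3a2*, *Rrp1*, *Prpf19* and *Sf3a1*, with Pearson r from 0.975 to 0.984. These r describe 8 libraries that fall into 2 groups and share 1 scaling, and carry no test. Reads of *H2-D1* can be shared with other class I copies, and *Vcp-rs* with *Vcp*.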

How the data were processed

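Polyadenylated RNA of 4 knockout and 4 control mice was read from both ends of strand-specific libraries (per the labels' protocols). Build mm10, GSNAP, featureCounts 2.0.1 and DESeq2 1.30.1 are named in the submitters' processing notes; no source used here states the annotation release or the strand setting. The deposited signal values are counts per gene after the authors' division by a library factor, with 1 decimal kept. Within 0.051 normalised counts, 99.9970% of the values above 0 were whole reads (5 were not), so reads were recovered as whole counts for edgeR 4.0.16 (which called 210 genes higher and 31 lower) and DESeq2 1.42.0. Gene lengths are those of the deposited table, where they equal the GENCODE M21 exon union for all 10 genes.

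Genes were tested with limma 3.58.1 (R 4.3.3), with an intensity trend, on log2(normalised count + 1), for those with a mean of at least 10. Chi-square per degree of freedom between replicates was 13.0 to 41.6, and all 8 libraries were kept as separate samples. Errors are SD over 4 mice or SE of the fit; read totals cover counting error only. The members and lists were chosen with earlier results of these data known. All 10 members are named; of each other list, up to 5 that passed or else the 2 with the highest mean; the nearest 5 to *Parp14* and *Parp1* by Pearson r; and *Rnaseh2b*. Some list genes enter the counts and are not reported here by name. Other settings were DESeq2, edgeR, array weights, no trend, quantile normalisation, equal totals, a minimum mean of 50, no filter, pseudocounts of 0.5 and 5, and each library left out, and, after seeing the data, control 1 and knockout 8 left out together.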

Additional observations from a re-analysis of the deposited data

Results flagged for a closer look

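In 5 of 66 groups of 4 libraries checked 1 library lay far from the other 3 (a gap that takes up most of the range); chance flags about 1 group in 20. *Parp10* in knockout 8 (1634.2 normalised counts) lay above the other knockouts, and so did the mean log2 difference of the 5 interferon-linked genes there (0.763). Knockout 8 was also apart for *Oasl1* (323.4). Knockout 5 was apart from the other knockouts for *Mx1* (494.3) and *Sirt7* (3344.6).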

How the results depend on the processing

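No paired analysis was possible because control and knockout mice share no replicate numbers. Genes called higher and lower numbered 199 and 35, and 93 and 11 with no intensity trend, 547 and 454 with array weights, 420 and 138 in DESeq2, 652 and 793 without control 1 and knockout 8, and 117 to 342 and 12 to 227 with each library left out. Of the 10 members 1 passed (*Parp14*), 0 with no intensity trend, 2 with array weights or in DESeq2 (*Parp10* added), 3 without control 1 and knockout 8 (*Parp8* and *Parp10* added), and 0 or 1 with each library left out; of the 5 interferon-linked members 1 passed, 0 with no intensity trend, 2 with array weights, in DESeq2 or without both libraries, and 0 or 1 with each left out. The 3 DNA-damage members did not pass in any setting run. The difference in the log2 ratio of *Parp14* to *Parp1* was 0.50, 0.39 to 0.58 with each library left out, and 0.39 without both libraries (exact permutation p = 0.1, the smallest that 3 against 3 allow). Log2 fold changes near 0, none of them past the test, changed sign. At equal totals *Parp4* was 0.0028 and *Nadk* 0.0105; with quantile normalisation *Nadk* was 0.0015; with array weights *Parp4* was 0.0037 and *Zc3hav1* -0.0022. Without control 1 and knockout 8 *Parp9* was -0.0181, *Parp4* 0.0429, *Parg* 0.0019, *Dnmt1* 0.0311, *Nadk* 0.0118 and *Nampt* -0.0256. With each library left out *Parp1* ran from -0.0410 to 0.1023, *Parp4* from -0.1309 to 0.0525, *Zc3hav1* from -0.0215 to 0.0672, *Dnmt1* from -0.1341 to 0.0219, *Nadk* from -0.0664 to 0.0144 and *Nampt* from -0.0001 to 0.1720. *Parp9* stayed above 0 there (0.0079 to 0.2131) and *Parg* below 0 (-0.1486 to -0.0476), and *Parp1* was 0.1146 without both libraries. The cause was not tested. Equal totals moved the median of all genes by 0.04. Depth limited no member, the lowest having 208 reads in a library.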

Other observations

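*Cd38*, which encodes a surface enzyme that consumes NAD, was singled out after its values were seen. It had 0, 3.8, 0 and 0.9 normalised counts in controls 1 to 4, against 12.6, 21.4, 4.9 and 39.5 in knockouts 5 to 8, a total of 5 reads over the controls and 82 over the knockouts. All knockouts lay above all controls, as for 3.99% of all genes tested, and knockout 8 was highest. It did not pass in limma (adjusted p = 0.0832) or edgeR (0.0518), and over the other settings that kept the gene (a minimum mean of 50 removed it) the adjusted p ran from 0.00537 to 0.247. It passed in 3 of them, DESeq2 (0.00537), no filter (0.0452) and array weights (0.0496). At such low counts its fitted log2 fold change of 3.24 depends on the pseudocount (1.83 to 3.83 with 5 and 0.5).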
